A study of Mus musculus with 4 samples.

Results

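Atf4 and Stc2 are a pair of genes of the cellular stress response, and each had 1 region in a table of m6A-marked regions of mouse embryonic stem cells. They were chosen by their symbols and for a small difference between the genotypes, out of 3882 genes and 6697 distinct regions in all. N6-methyladenosine (m6A) is a methyl mark on adenosine in mRNA, and marked RNA was captured with an antibody and sequenced. The libraries came from Gsk-3 DKO cells, which lack both Gsk-3 kinases (double knockout), and from wild-type (WT) cells, both of the strain E14K, grown without feeders and kept without leukaemia inhibitory factor for 14 days. Each genotype had 1 m6A library and 1 input library of total mRNA, and no count for input was listed. The count columns name the genotype alone and were taken as those of the m6A libraries, whose titles name the mark. The labels do not say whether the Gsk-3 DKO cells are 1 clone, and the removal of that cytokine, which holds embryonic stem cells in self-renewal, applied to both genotypes.

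ATF4 is a basic leucine zipper transcription factor and the main effector of the integrated stress response. In that response, kinases that sense amino acid shortage, misfolded protein, haem shortage or double-stranded RNA phosphorylate the initiation factor eIF2, which lowers translation in general and raises translation of Atf4 mRNA through open reading frames upstream of its coding sequence. In mouse embryonic fibroblasts, m6A in that upstream part of Atf4 mRNA has been described as part of this control. ATF4 then switches on genes of amino acid supply, transfer RNA charging and feedback. Stc2 encodes stanniocalcin 2, a secreted glycoprotein that is induced by endoplasmic reticulum stress downstream of ATF4 and that inhibits pappalysin, a protease that frees insulin-like growth factors (IGFs) from their binding proteins.

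The deposited counts of the whole table summed to 27072 in Gsk-3 DKO and 573971 in WT, and the highest count was 1100 in Gsk-3 DKO and 13799 in WT. These sums run over listed regions and are not sequencing depth. No region had a Gsk-3 DKO count at or above its WT count, so the table holds 1 direction, and the rule by which regions entered it is not known. The knockout could not be checked, because Gsk3a was not listed and Gsk3b had only a region upstream of the gene, with 3 reads in Gsk-3 DKO and 78 in WT. Of 14 markers of embryonic stem cells, 5 were listed (Esrrb, Lin28a, Pou5f1, Sall4 and Utf1), while Nanog, Sox2, Klf4, Klf2, Zfp42, Dppa5a, Dppa4, Tdgf1 and Fgf4 were not. Markers of derivatives were listed too, 3 of 6 for endoderm, 3 of 5 for mesoderm, 2 of 4 for neural cells and 1 of 3 for fibroblast-like cells. Of all protein-coding genes 15.8% were listed. Since the entry rule is not known, a marker that is not listed may still be expressed. The regions used for the listed markers summed to 23 reads in Gsk-3 DKO and 356 in WT for embryonic stem cells, 17 and 209 for endoderm, 1 and 142 for mesoderm, 12 and 1147 for neural cells, and 0 and 108 for the fibroblast marker Col1a1. The part of the cells' state in the values of Atf4 and Stc2 was not tested.

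The Atf4 region lay on chromosome 15 (80256709 to 80256885, 177 bases, in coordinates that match the build GRCm38), within a coding exon. Its centre was 1613 bases from the transcription start of a gene 2362 bases long, and it ended 660 bases before the end of the gene. Atf4 had 10 reads in Gsk-3 DKO (95% Poisson interval 4.80 to 18.4) and 49 reads in WT (36.3 to 64.8). The 2 counting intervals, of counts without scaling, did not overlap. This is not particular to Atf4, as it holds for every region without Gsk-3 DKO reads, 50.5% of all. It also holds for regions with reads in both, down to such counts as 4 in Gsk-3 DKO and 19 in WT, so 50.5% is a lower bound. The full share of regions without such overlap was not counted. On the scale of the authors' deposited ratio, which multiplies WT over Gsk-3 DKO by a constant of 0.825, this was 4.04-fold lower in Gsk-3 DKO (95% exact binomial interval 2.02 to 8.95). The log2 of Gsk-3 DKO over WT, with 0.5 added to both counts, was -1.96. The sign of that value depends on the scaling. A median-ratio factor, which centres the regions with reads in both genotypes, moves every log2 value up by 3.77 and puts Atf4 at 1.81. No listed region had a Gsk-3 DKO count at or above its WT count, so this factor puts the smallest differences above 0 by construction. It therefore does not test the direction. No region of the Atf4 5'UTR, where the upstream reading frames lie, was listed, and since the entry rule is not known this says nothing about methylation there.

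The Stc2 region lay on chromosome 11 (31360111 to 31360301, 191 bases) and was annotated to both the coding exon and the 3'UTR, so that it spans the end of the coding sequence. The neighbourhood of the stop codon is a place where m6A is known to be common in mammalian mRNA. The centre of the region was 9855 bases from the transcription start of a gene of 10621 bases, and its nearer edge was 670 bases from the end of the gene. Stc2 had 22 reads in Gsk-3 DKO (13.8 to 33.3) and 118 reads in WT (97.7 to 141), again without overlap of the intervals and with the same limit as for Atf4. It was 4.42-fold lower in Gsk-3 DKO (2.79 to 7.33), with a log2 value of -2.12. The median-ratio factor puts it at 1.65, by the same construction as for Atf4.

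**Figure D1:**
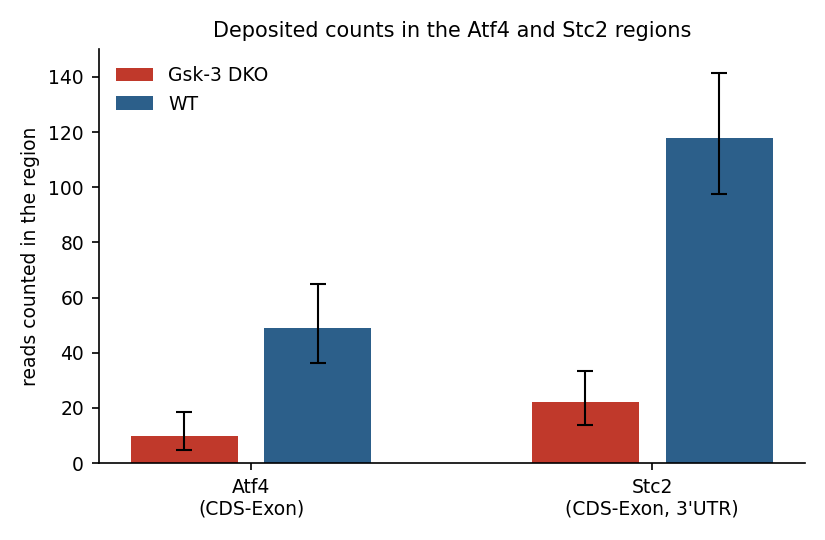
Deposited read counts (vertical axis) in the region of Atf4 and that of Stc2 (horizontal axis), with Gsk-3 DKO in red and WT in blue. Bars are 1 library each and lines are exact 95% Poisson intervals for counting error only. The intervals of 10 and 49 reads for Atf4, and of 22 and 118 for Stc2, do not overlap. The same holds for at least the 50.5% of regions without Gsk-3 DKO reads, and the full share was not counted.

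With 1 library per genotype there is no replicate check and no test, and both genes were picked for these very counts, so the values describe these libraries. Fewer marked molecules and less of the mRNA cannot be told apart here. The intervals leave out variation between cultures and captures, and they take each read as an independent molecule, so they may be too narrow. The fold of Atf4 was smaller than that of Stc2 by less than counting error: the ratio of Gsk-3 DKO to WT reads in Atf4 was 1.09 times that in Stc2, with an interval of 0.429 to 2.62. The pair differed more in depth. Per 100 bases, Stc2 had 11.5 reads in Gsk-3 DKO and 61.8 in WT, and Atf4 had 5.65 in Gsk-3 DKO and 27.7 in WT. The median WT density over all regions was 21.9 reads per 100 bases. Of all regions, 8.77% had more Gsk-3 DKO reads and 44.0% more WT reads than Atf4, whereas 3.26% had more Gsk-3 DKO reads and 15.3% more WT reads than Stc2. Both lengths were ordinary, since the median region was 191 bases long. A single region per gene was also usual, as 2707 of the listed genes (69.7%) had only 1.

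The next values place the pair among the other regions and carry no test, because the pair was chosen for them. Ordered from the smallest difference between genotypes, Atf4 was number 12 and Stc2 number 23 of 6697 regions. This place depends on the pseudocount: the share of regions with a smaller difference was 0.164% for Atf4 and 0.329% for Stc2 with 0.5 added, but 0.269% and 1.46% with 2 added. The smallest fold in the table was 2.91, and the median was 10.4, taking 3 counts in place of 0 where a region lacked Gsk-3 DKO reads. Both genes had folds above 4, as 99.9% of regions did, and neither reached 10-fold, which 52.5% of regions did. Regions without Gsk-3 DKO reads all pass 4-fold through the 3 counts put in place of 0, as the lowest WT count was 15. Whether such regions pass 10-fold is set by their WT count alone, here and in the gene lists below. The intervals of Atf4 (from 2.02) and Stc2 (from 2.79) reach below 4. Both genes had Gsk-3 DKO reads, which 50.5% of regions lacked. Among 2379 regions with 33 to 73 WT reads, close to the 49 of Atf4, the median Gsk-3 DKO count was 1, 1135 regions (47.7%) had none, and 21 regions (0.883%), Atf4 included, had 10 or more. Among 1172 regions with 79 to 177 WT reads, close to the 118 of Stc2, the median Gsk-3 DKO count was 4, 314 (26.8%) had none, and 15 (1.28%), Stc2 included, had 22 or more. Like WT counts therefore went with far fewer Gsk-3 DKO reads in most regions.

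Regions with the annotation of Atf4, coding exon alone, numbered 1407. Their median log2 value was -3.97, 414 of them (29.4%) had no Gsk-3 DKO reads, and 4 had a smaller difference than Atf4. Regions annotated like Stc2, to a coding exon and the 3'UTR, numbered 266. Their median log2 value was -4.15, 84 (31.6%) had no Gsk-3 DKO reads, and 2 had a smaller difference than Stc2.

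**Figure D2:**
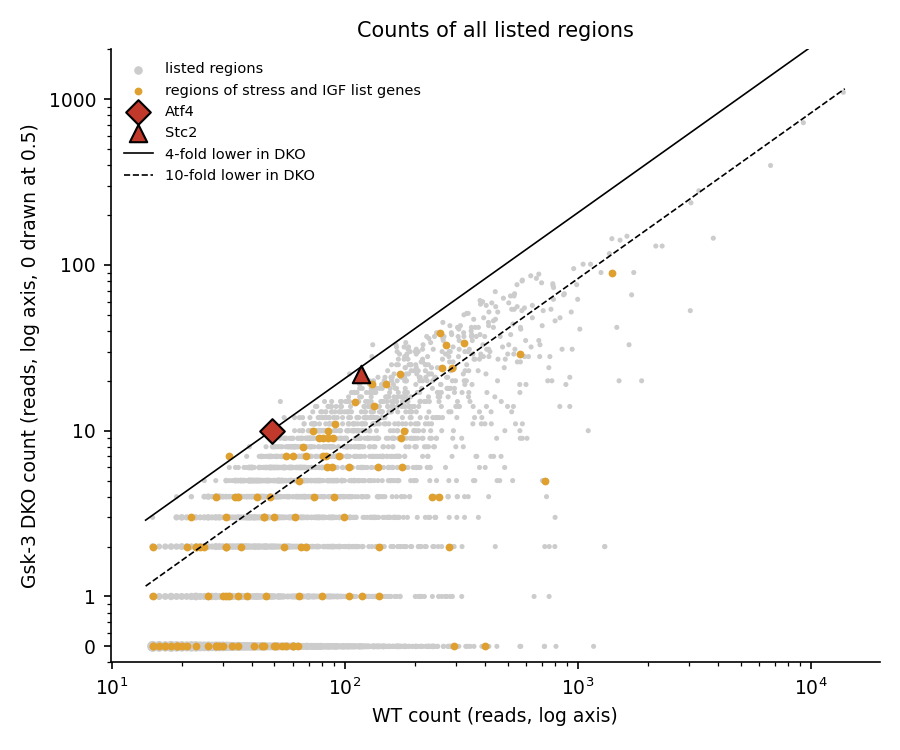
Gsk-3 DKO count (vertical log axis, 0 drawn at 0.5) against WT count (horizontal log axis) for all 6697 regions in grey, with the regions of the stress and IGF gene lists in orange and Atf4 (diamond) and Stc2 (triangle) in red. The lines mark 4-fold and 10-fold lower counts in Gsk-3 DKO after the authors' constant; Atf4, at 10 against 49 reads, and Stc2, at 22 against 118, lie near the upper edge of the cloud.

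The genes whose counts were most like those of Atf4 were sought among 3370 other named genes by distance in the plane of both log2 counts. Among them, the small nuclear RNA Rn7sk had 12 reads in Gsk-3 DKO and 55 in WT (3.78-fold lower), and the co-chaperone gene Dnajc14 had 8 and 50. Eno3, a muscle enolase gene, and Pfn1, which encodes the actin-binding protein profilin, were also named, but they share 1 region with 8 reads in Gsk-3 DKO and 50 in WT. For Stc2 the nearest was Mllt4, the gene of the junction protein afadin, with 20 reads in Gsk-3 DKO and 122 in WT (5.03-fold lower). Next came the Eph receptor gene Ephb3 (20 and 128), the splicing factor gene Srsf6 (19 and 128), the menin gene Men1 (21 and 139) and Yars, the tyrosyl-tRNA synthetase gene (19 and 131). Of the genes named here, Yars was also on the list of ATF4 targets. The likeness rests on 2 libraries and is one of counts alone.

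Neighbouring regions on the chromosome had larger log2 differences, as nearly all regions did, because the pair was picked for small ones. Only 0.164% of regions had a smaller difference than Atf4 and 0.329% than Stc2, so no local contrast can be read from this. Smcr7l, 6737 bases from the Atf4 region, had 7 reads in Gsk-3 DKO and 138 in WT (16.3-fold lower). Tab1, an activator of the kinase TAK1, had 2 regions within 200 kb of Atf4, with 0 reads in Gsk-3 DKO for both and 61 and 16 in WT. Near Stc2 the table held 1 region, without a gene, with 0 reads in Gsk-3 DKO and 43 in WT.

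The other genes of the pathway were read from lists made for the pair, with the deepest region of each gene, the one with the highest mean count of both genotypes. Over all 3882 listed genes the median log2 value was -4.85 (11.1-fold lower with 3 counts in place of 0), 55.6% of genes were at least 10-fold lower in Gsk-3 DKO and 46.2% had no Gsk-3 DKO reads in that region. Of 178 genes on all lists together, 57 (32.0%) were in the table, beside 15.8% of protein-coding genes. No gene among the 57 had a smaller log2 difference in its deepest region than Stc2 or Atf4, which were picked for small differences. Cebpg and Igfbp7, with 0 reads in Gsk-3 DKO, stand at 4.40-fold and 4.12-fold with 3 counts in place of 0. Their intervals start at 3.18 and 2.96, below the folds of both Atf4 and Stc2, and those of some other genes do so too. Over all 110 regions of the 57 genes, 1 had a smaller log2 difference than the pair, and it was singled out after its values were seen. It was a coding exon of Ep300, the acetyltransferase p300, with 7 reads in Gsk-3 DKO and 32 in WT (3.77-fold lower). The other regions of Ep300 had 9 reads in Gsk-3 DKO and 78 in WT (7.15-fold lower) and, in an intron, 0 and 44.

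Upstream of ATF4, 5 of 17 genes for the eIF2 kinases, eIF2, its exchange factor eIF2B and the phosphatase subunits were listed. Their median log2 value was -3.83 (12.4-fold on the same footing), and 4 of the 5 were at least 10-fold lower in Gsk-3 DKO. Ppp1r15b, a subunit that directs the phosphatase to eIF2, had 10 reads in Gsk-3 DKO and 180 in WT (14.8-fold lower, 7.89 to 31.5). This is the same Gsk-3 DKO count as in Atf4 beside a much higher WT count. Ppp1r15a, the stress-induced form of that subunit, had 5 and 64 reads, a 10.6-fold difference. Eif2ak3, the gene of the endoplasmic reticulum kinase PERK, had 2 and 55 reads (22.7-fold). The eIF2B subunit genes Eif2b1 and Eif2b2 had 3 and 45 reads, and 0 and 19. The other 3 eIF2 kinase genes were not listed.

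Among dimer partners of ATF4 and factors of its turnover, 11 of 19 were listed, with a median log2 value of -2.96 (7.22-fold). All 11 had smaller log2 differences than the median gene, though for Cebpg, with 0 reads in Gsk-3 DKO and 16 in WT, the value is set by the low WT count. In this list 3 of the 11 were at least 10-fold lower. Ddit3, the gene of the partner CHOP, had 11 reads in Gsk-3 DKO and 91 in WT (6.82-fold lower, 3.64 to 14.1). Trib3, a pseudokinase that binds ATF4 and curbs it, had 22 and 173 reads (6.49-fold, 4.15 to 10.6), the same Gsk-3 DKO count as Stc2. The AP-1 genes Jun and Junb had 34 and 324 reads (7.86-fold), and 33 and 273 (6.82-fold). Nfe2l1, a transcription factor of the proteasome stress response, had 29 and 565 reads (16.1-fold), and Egln1, a prolyl hydroxylase gene, 4 and 35 (7.22-fold). The median WT count of this list was 84 over the deepest regions of its genes. The table's median of 43 is over all regions, so the 2 medians are of unlike sets. The part of read number in these values was not tested.

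Among ATF4 targets, 16 of 48 were listed, with a median log2 value of -3.22 (8.67-fold). Smaller differences than the median gene were seen in 12 of the 16, and 5 were at least 10-fold lower. Yars had 19 reads in Gsk-3 DKO and 131 in WT (5.69-fold lower, 3.50 to 9.75), the smallest difference of the list. Slc7a5, a transporter of large neutral amino acids, had 15 and 111 reads (6.10-fold), and Ddit4, an inhibitor of mTOR, 24 and 290 (9.97-fold, 6.57 to 15.8). Mars, the methionyl-tRNA synthetase gene, had a larger difference, with 6 and 139 reads (19.1-fold, 8.56 to 53.0). The 4 targets with larger differences than the median gene had no Gsk-3 DKO reads, beside the following numbers in WT: the amino acid transporter genes Slc38a2 (60) and Slc7a1 (28), the tryptophanyl-tRNA synthetase gene Wars (50) and the tRNA exporter gene Xpot (35). These 4 were named after their values were seen. With 3 counts in place of 0, Slc38a2 was 16.5-fold and Slc7a1 7.70-fold lower, and their intervals start at 13.0 and 5.86.

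Some stress genes had several regions, of which those of Trib3, Ddit4 and Chac1, a glutathione-degrading enzyme gene, are given here, picked after their values were seen. The 5 regions of Trib3, from start to end, had 22, 1, 10, 1 and 4 reads in Gsk-3 DKO and 173, 26, 73, 30 and 48 in WT. Their folds ran from 6.02 to 24.7, and the interval of the highest (4.11 to 1009), in a region with 1 Gsk-3 DKO read, overlapped that of the deepest region (4.15 to 10.6). The 2 regions of Ddit4 had 24 and 14 reads in Gsk-3 DKO and 290 and 134 in WT, with folds of 9.97 (6.57 to 15.8) and 7.89 (4.54 to 14.8). The 3 regions of Chac1 had 7, 2 and 4 reads in Gsk-3 DKO and 81, 68 and 34 in WT, with folds from 7.01 (2.50 to 27.2) to 28.0 (7.47 to 236). Within Trib3, Ddit4 and Chac1 these intervals overlapped, so no difference along them was shown beyond counting error. This does not hold for every listed gene. In Junb, also picked after its values were seen, 1 coding region had 4 reads in Gsk-3 DKO and 236 in WT (48.7-fold, 18.8 to 180). Another had 33 and 273 (6.82-fold, 4.74 to 10.1), without overlap. The number of such genes was not counted. None of the 10 regions of Trib3, Ddit4 and Chac1 had a fold as small as that of Atf4 or Stc2, which were picked for small differences. With 1 region each the spread along Atf4 and Stc2 cannot be seen.

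**Figure D3:**
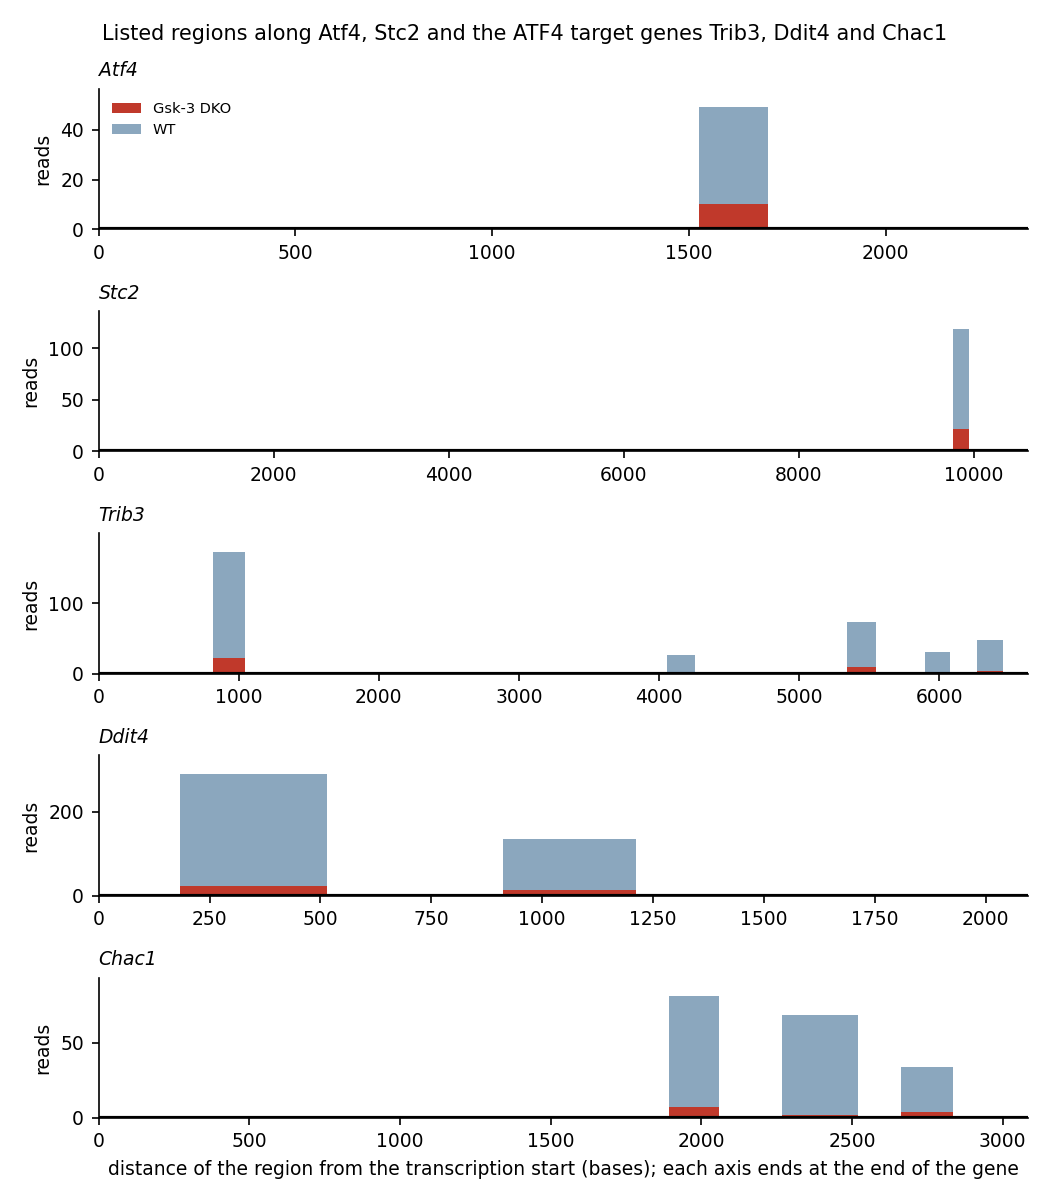
Read counts (vertical axis) of the listed regions at their distance from the transcription start (horizontal axis, bases, ending at the gene's end) for Atf4, Stc2, Trib3, Ddit4 and Chac1, with Gsk-3 DKO in red drawn in front of WT in pale blue. Bars start at 0, are not stacked and are as wide as the region; Atf4 and Stc2 have 1 region each, centred 1613 and 9855 bases from the start, and Trib3 has 5.

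The unfolded protein response, which reaches ATF4 through PERK, had 13 of 36 genes listed and a median log2 value of -4.85 (13.7-fold), with 7 of 13 at least 10-fold lower. P4hb, a protein disulfide isomerase gene, had 7 reads in Gsk-3 DKO and 56 in WT (6.60-fold lower). Sel1l, of the degradation pathway for misfolded protein, had 7 and 83 (9.78-fold). The oxidoreductase gene Ero1l had 1 and 119 in an intron, 98.1-fold with an interval of 17.3 to 3909. The chaperone gene Calr had 0 and 60 (16.5-fold with 3 counts in place of 0, with an interval from 13.0 upwards). Derl1 had 3 and 50, and the chaperone gene Hyou1 2 and 36. Of 32 heat shock and oxidative stress genes, 4 were listed (12.5%, beside the 15.8% of protein-coding genes), with a median of -4.17 (12.2-fold) and 2 of 4 at least 10-fold lower. They were the sensor gene Keap1 (4 reads in Gsk-3 DKO and 90 in WT), the chaperone gene Hsp90ab1 (1 and 35), its co-chaperone Bag3 (4 and 28) and Txnip (0 and 20).

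Relatives of the pair differed widely. Of 20 paralogs of ATF4 in the ATF and CREB families, 5 were listed, with a median log2 value of -3.42 (8.66-fold) and 2 of 5 at least 10-fold lower. Crebzf had 39 reads in Gsk-3 DKO and 256 in WT (5.41-fold lower, 3.85 to 7.79), in a region the table labels as genic. Jdp2 had 2 and 280 in its 3'UTR (115-fold, 31.7 to 958). Atf3, itself induced by ATF4, had 6 and 84 (11.5-fold), Creb3l2 4 and 42, and Atf2 0 and 21 in an intron. The stanniocalcin and IGF axis had 9 of 16 genes listed, and its median of -5.54 was the lowest of the lists on the log2 scale, but at 12.8-fold it was not the lowest with 3 counts in place of 0. At least 10-fold lower counts were found for 6 of the 9. Stc1, the other stanniocalcin, and the pappalysins Pappa and Pappa2, which stanniocalcins inhibit, were not listed. The receptor genes Igf1r and Igf2r had 4 reads in Gsk-3 DKO and 253 in WT (52.2-fold, 20.1 to 193), and 2 and 141 (58.1-fold). The receptor adaptor gene Irs2 had 90 and 1398 (12.8-fold, 10.3 to 16.0). Its relative Irs1 had 0 and 401 (110-fold with 3 counts in place of 0, with an interval from 89.2 upwards). Igfbp2, a binding protein gene, had 7 and 68 (8.01-fold), and Igfbp7 had 0 and 15. Of the named genes of the axis, Igfbp2 came nearest to Stc2 among those with Gsk-3 DKO reads, and its interval (3.68 to 20.7) overlapped that of Stc2.

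**Figure D4:**
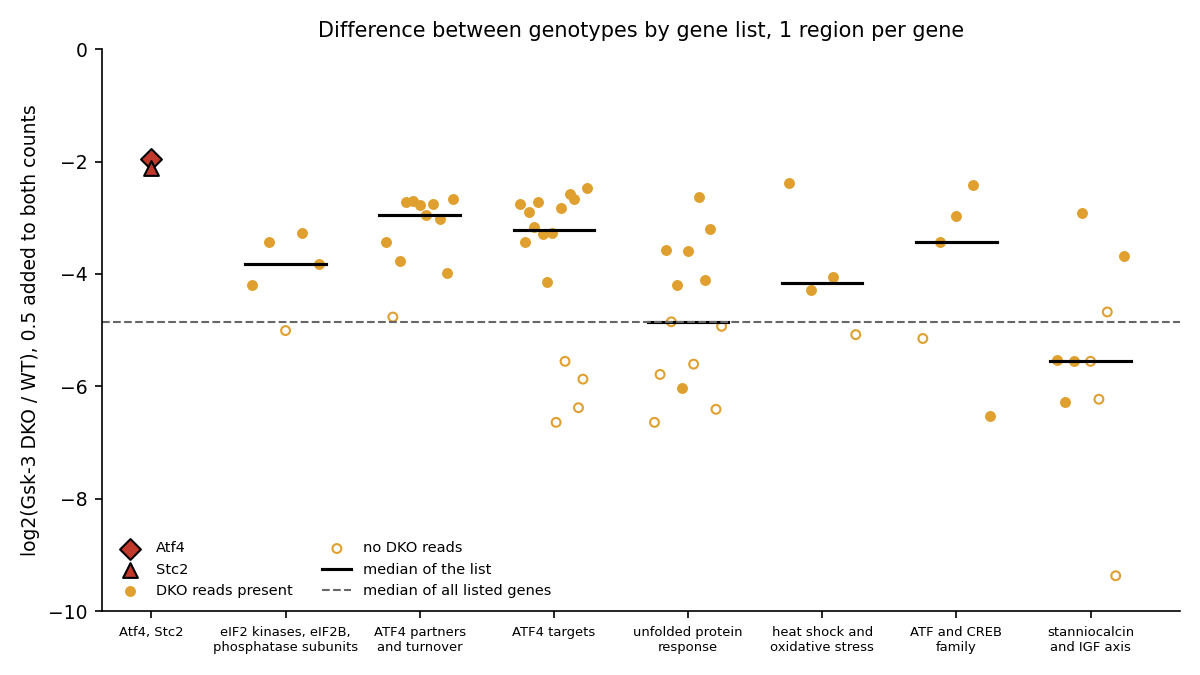
Log2 of Gsk-3 DKO over WT (vertical axis, 0.5 added to both counts) for Atf4 and Stc2 at the left and for the listed genes of 7 lists (horizontal axis), 1 deepest region per gene; open points have no Gsk-3 DKO reads, solid bars are list medians and the dashed line is the median of all listed genes (-4.85). Atf4 (-1.96) and Stc2 (-2.12), which were picked for small differences, lie above every point of the lists. The medians run from -2.96 for partners and turnover of ATF4 to -5.54 for the stanniocalcin and IGF axis.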

How the data were processed

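The authors deposited 1 table of regions with a count for each genotype, which is taken as unnormalized although the file headers do not say so. A count from input cannot be told apart from an m6A count by the headers. Per the submitters' processing notes, Bowtie2, DESeq and build mm9 were used, without roles; the peak caller is not given in the sources used here. The deposited ratio equals the WT count over the Gsk-3 DKO count times 0.825, and the deposited signal equals WT reads per base. Coordinates are the authors' own. For 6035 rows, RefSeq places the gene in GRCm38.p6, and 99.9% of them fell within 5000 bases of that gene, so the coordinates match this build, and gene lengths come from it.

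From the 7562 rows, distinct regions were taken. Log2 values add 0.5 to both counts and keep the authors' constant. Folds use the counts and that constant, with a floor of 3 where Gsk-3 DKO had 0. Intervals (95%, exact) cover counting error only. They take reads as independent molecules, which reads without molecular identifiers are not, so they may be too narrow even for counting error. Deepest means the highest mean count. Named genes are the 5 nearest to each member, listed genes within 200 kb, and in each list the 4 deepest and up to 2 more with the smallest difference; exceptions are marked, and 1 gene that the rule takes is not reported here. Members and lists were chosen with earlier results of these data known. Python 3.11.15, pandas 2.3.3 and SciPy 1.17.1 were used.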

Additional observations from a re-analysis of the deposited data

How the results depend on the processing

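Of 71 alternatives, all planned, 62 left the value within counting error (for a list, that of its middle gene; for a place in the order, that of the gene's own ratio). The exceptions all came from a median-ratio factor, which moves every log2 value up by 3.77 because it centres regions with reads in both genotypes. With it Atf4 was at 1.81 and Stc2 at 1.65, and the list medians were 0.81 for partners and turnover, 0.55 for targets, 0.34 for the ATF and CREB families, -0.059 for eIF2 genes, -0.40 for heat and oxidative stress, -1.08 for the unfolded protein response and -1.78 for the stanniocalcin and IGF axis. Such a shift leaves the order of genes as it was. Its changes of sign are built in, as no listed region had a Gsk-3 DKO count at or above its WT count, so they do not test the direction. Without the authors' constant every value moved by -0.28. The 62 overstate how firm the values are. With 1 region each, summing regions could not move Atf4 or Stc2. For the unfolded protein response, medians from -5.83 (pseudocount 0.25) to -3.18 (pseudocount 2) passed as within counting error. Its middle gene had no Gsk-3 DKO reads, so the interval of its fold has no upper end. The share of regions with a smaller difference was 0.149% to 0.269% for Atf4 and 0.314% to 1.46% for Stc2, the highest at a pseudocount of 2. No paired analysis was possible because each genotype had 1 m6A library, and for the same reason no replicate could be left out. Read number limits these values: 10 Gsk-3 DKO reads in Atf4 leave its fold known only within 2.02 to 8.95.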
